A study of Mus musculus with 8 samples.

Results

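The nuclear-encoded respiratory chain was taken as every gene symbol of the deposited count files that begins with Nduf or Uqcr, is Sdha, Sdhb, Sdhc, Sdhd, Cyc1 or Cycs, begins with Cox followed by a digit from 4 to 8 and a letter or number, or begins with Atp5 followed by a letter. These names selected 94 of 17364 genes, without use of any measured value: 48 genes of complex I, 4 of complex II, 9 of complex III, cytochrome c (Cycs), 15 of complex IV and 17 of complex V. The RNA came from cultured bone-marrow-derived macrophages (BMDMs), which are differentiated from marrow precursors. The donors were wild-type mice or mice carrying Sept2C111A, an allele of the septin 2 gene whose name denotes a cysteine-to-alanine change. TNF-α (30 ng/ml, 24 h) had been added to all cultures, and each genotype had 4 libraries, so no untreated state was compared. The sources used here do not give the age, strain or zygosity of the mice. Nor do the labels tie the 4 libraries of a genotype to separate animals or dishes, and every p-value below measures the spread between libraries, which may be technical.

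The respiratory chain sits in the inner mitochondrial membrane. Complex I takes electrons from NADH and complex II from succinate, ubiquinone carries them to complex III, cytochrome c carries them on to complex IV, and complex IV reduces oxygen to water. Complexes I, III and IV pump protons across the membrane, and complex V, the ATP synthase, makes ATP as protons flow back. Most subunits are encoded in the nucleus, each complex other than complex II also has subunits encoded in mitochondrial DNA, and those transcripts were not analysed here. In macrophages, inflammatory activation is known to shift ATP production towards glycolysis, and succinate oxidation at complex II is linked to mitochondrial reactive oxygen.

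Library totals were close, at 19543973 to 21288521 counts, and 3 counts corresponded to 0.14 to 0.159 CPM. CPM is a gene's count scaled to a common normalized library size. Macrophage markers were abundant in every library (summed CPM of 7 markers 21123 to 22872 in wild-type and 19193 to 20920 in Sept2C111A libraries). Lyz2 was the largest part of the sums (means 14365 and 12366 CPM). The markers did not move together, as Lyz2 had a log2 fold change of -0.22 and Fcgr1 one of 1.18. Some stromal markers were present too (summed CPM of 7 markers 3455 to 4506 against 2718 to 3497), as were some smooth muscle markers (4 markers, 1135 to 1516 against 670 to 1028). The stromal sum was mostly Col1a1 and Col1a2 (wild-type means 2056 and 2002 CPM), while Lum (0.745 CPM) and Thy1 (0.308 CPM) were low. The smooth muscle sum was mostly Acta2 and Tagln (1016 and 322 CPM), with Myh11 at 0.522 CPM. Thy1 and Myh11 did not pass the filter on low counts. The 3 cycling markers summed to 61.9 to 65.1 CPM in wild-type libraries and 34.0 to 48.4 CPM in the Sept2C111A libraries. Septin2, the gene of the altered allele, was at 226 ± 7.43 CPM in the wild-type group and at 188 ± 18.7 CPM in the mutant group (mean ± SD, n = 4 each, as for every ± below), and its difference did not pass (log2 fold change -0.27, adjusted p = 0.063). Counts per gene do not show the base change itself. Bulk RNA cannot tell fewer cells of a type from less RNA per cell.

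The Sept2C111A libraries differed among themselves more than the wild-type libraries, and the respiratory chain genes shared that pattern. Of 93 members that passed the filter on low counts, 83 had their highest level in Sept2C111A library 3 (89.2%, against 27.5% of all tested genes). The lowest level fell in Sept2C111A library 4 for 40 members and in wild-type library 2 for 33. On the log2 CPM scale, the median deviation of the members from their own means over the 8 libraries was -0.063, -0.16, -0.021 and -0.0085 in wild-type libraries 1 to 4. It was 0.0076, 0.079, 0.33 and -0.16 in Sept2C111A libraries 1 to 4. Sept2C111A library 3 thus lay above every wild-type library, and library 4 lay close to wild-type library 2.

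Other short transcripts had the same profile. The members had a median transcript length of 838 nt, against 3065 nt over all tested genes with a known length, and 60.2% of them were at most 1000 nt long, against 5.69%. The 645 tested genes of at most 1000 nt that are not members deviated by -0.066, -0.17, -0.039 and -0.013 in the wild-type libraries and by 0.013, 0.10, 0.36 and -0.18 in the Sept2C111A libraries (median, log2). Differences between the genotypes are given below with this profile beside them, and its part in each of them was not tested. A fit was meant to remove a smooth trend on transcript length and GC content, and is called the trend fit below. It did not keep each library's normalized size with that library. Its values mix the trend with a loss of normalization and do not isolate the trend.

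**Figure D1:**
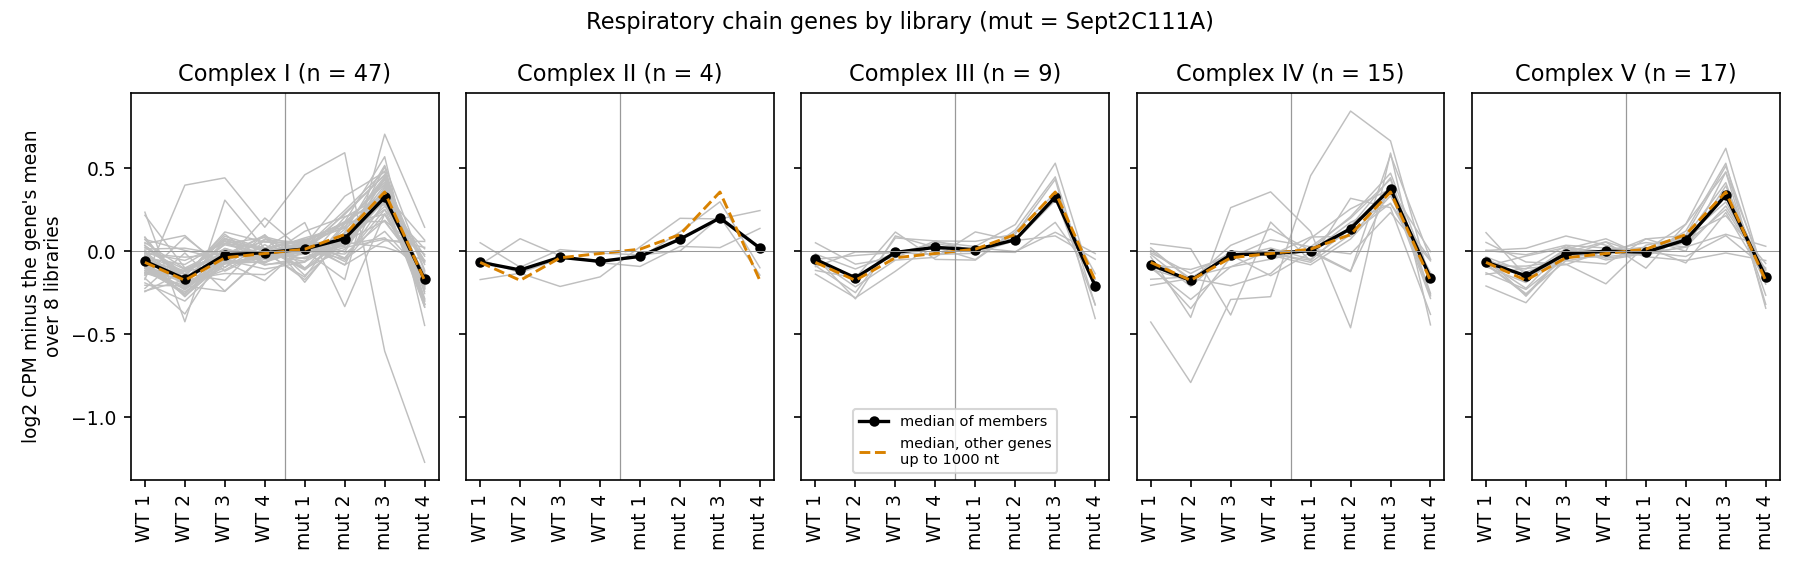
Deviation of log2 CPM from each gene's mean over 8 libraries (vertical axis), by library (horizontal axis, mut = Sept2C111A), with a panel for each complex. Grey lines are members, black points their median and the dashed line the median of 645 other genes of at most 1000 nt. In every panel the median rises to Sept2C111A library 3 and falls at library 4, with a smaller rise and fall in complex II than in the dashed line.

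All members together made up 0.72% to 0.879% of the counts of a library. Their summed level was 7461, 7017, 7649 and 7681 CPM in the wild-type libraries and 7713, 8168, 9520 and 7009 CPM in the Sept2C111A libraries. The groups overlapped, since Sept2C111A library 4 lay lowest of all and library 3 highest. The log2 ratio of the group means was 0.12, and it was 0.034 without Sept2C111A library 3.

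By complex, the log2 ratio of summed CPM was largest for complex IV, at 0.19 (1680 ± 79.0 CPM in wild type against 1911 ± 302 CPM in the mutant). It was 0.14 for complex I (2028 ± 107 and 2229 ± 322 CPM), 0.11 for complex II (393 ± 2.72 and 424 ± 24.7 CPM), 0.11 for complex III (695 ± 36.6 and 749 ± 115 CPM) and 0.072 for complex V (2561 ± 86.7 and 2691 ± 301 CPM). In every complex the ranges of the groups overlapped. Without Sept2C111A library 3 the log2 ratios were 0.041, 0.072, 0.0094, 0.083 and -0.0041 for complexes I to V.

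**Figure D2:**
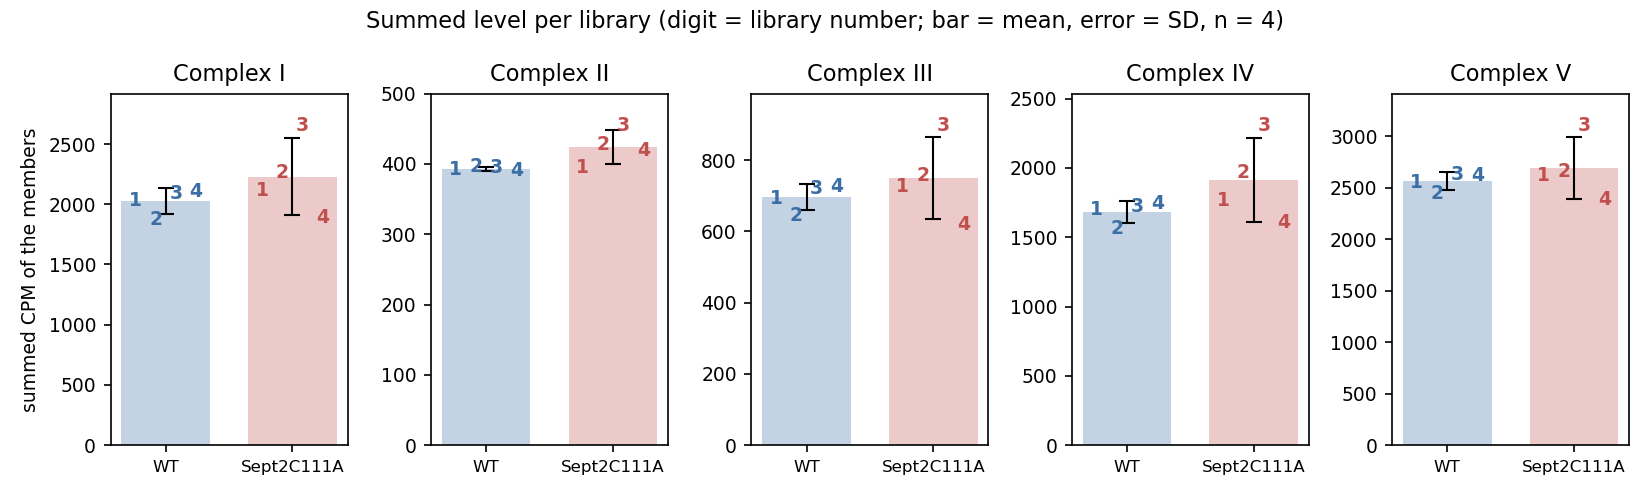
Summed CPM of the members of each complex (vertical axis from 0) in wild-type and Sept2C111A libraries (horizontal axis). Bars are means, error bars SD (n = 4) and digits the library numbers; library 3 is the highest Sept2C111A library in every panel, and library 4 lies among or below the wild-type libraries in all but complex II.

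The proportions among the complexes moved little. Complex I held 26.7% to 27.9% of the members' summed CPM over the 8 libraries, complex II 4.78% to 5.97% and complex III 8.82% to 9.45%. Complex V held 34.2%, 34.8%, 34.4% and 34.1% in the wild-type libraries and 33.9%, 32.6%, 32.6% and 34.0% in the Sept2C111A libraries. Complex IV held 22.8%, 22.3%, 22.5% and 22.7% in the wild-type libraries and 22.9%, 24.1%, 24.2% and 22.9% in the Sept2C111A libraries. The groups did not overlap in either share, that of complex V being lower and that of complex IV higher in the Sept2C111A libraries, and libraries 2 and 3 were furthest from wild type. Cox7a2l, described below, supplied 227 of the 1680 CPM of complex IV in wild type and 292 of the 1911 CPM in the mutant (group means). Its own groups did not overlap, so the separate shares of complex IV need not reflect the complex as a whole. The part of Cox7a2l in them was not tested. The shares of a library sum to a fixed total, so these are not independent, and no test was run on them.

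Per transcript length, complex IV was the most abundant. In wild-type libraries its subunits had a median of 201 CPM per kb of the longest curated transcript, followed by complex V at 127, complex III at 89.7, complex I at 53.4 and complex II at 48.2 CPM per kb. The ranges overlapped between complexes, from 61.7 (Cox7b) to 458 CPM per kb (Cox8a) in complex IV and from 23.3 (Atp5g1) to 277 CPM per kb (Atp5d) in complex V. Complex III ran from 36.3 (Uqcrfs1) to 144 (Uqcrb), complex I from 11.4 (Ndufab1) to 121 (Ndufa3) and complex II from 31.4 (Sdhc) to 75.5 CPM per kb (Sdhb). With the shortest curated transcript of each gene the order of the medians was the same, and those of complexes I, IV and V were 65.5, 211 and 165 CPM per kb.

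**Figure D3:**
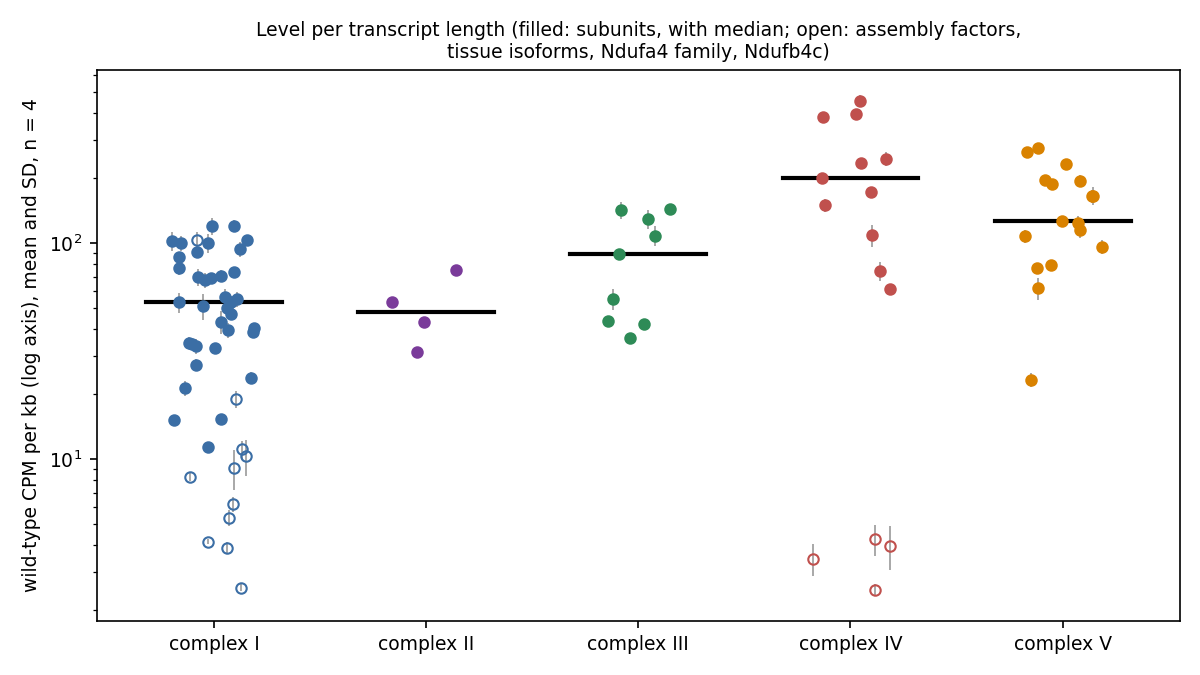
Wild-type CPM per kb of the longest curated transcript (vertical log axis, mean and SD of 4 libraries) for the members of each complex (horizontal axis). Filled points are subunits, with Cox7a2l among those of complex IV, lines their medians (201 for complex IV, 48.2 for complex II), and open points the assembly factors, isoforms of other tissues, the Ndufa4 family and Ndufb4c, most of which lie below the subunits.

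With all 8 libraries and both directions counted, a smaller share of the members than of all tested genes was called different between the genotypes. The shares called higher were similar. At an adjusted p under 0.05 (edgeR quasi-likelihood test, adjusted over all genes), 3 of 93 members rose in Sept2C111A libraries and 0 fell, or 3.23%, where 6.46% of 12462 tested genes were called, 3.43% as higher and 3.03% as lower. At an unadjusted p under 0.05 there were 12 members, all higher (12.9%, against 24.8% of tested genes in either direction). In the higher direction alone, 1534 of 12462 tested genes had such a p. The groups did not overlap for 5 members (5.38%, against 16.9% of tested genes). The members called were Sdhd of complex II and Cox7a2l and Cox6a2 of complex IV, so that complexes I, III and V held 0 called members among 47, 9 and 17 tested. At an unadjusted p under 0.05 those complexes had 6, 0 and 1. DESeq2 also called 3 members, where it called 11.7% of the genes to which it gave an adjusted p. With the replicate number as a block, 1 member (Sdhd) was called, where 3.96% of tested genes were. The count depended on single libraries. It was 17 without Sept2C111A library 4, all of them higher (18.3% of members). Of tested genes, 16.5% were then called in either direction and 8.69% as higher. The count of members was 2 without Sept2C111A library 3 (where 5.66% of tested genes were called) and 1, Sdhd, without library 2 (where 2.86% were). Sdhd was also the 1 call without wild-type library 2 or 4 (3.77% and 2.99% of tested genes), and there were 0 calls when wild-type library 1 or 3 was left out (2.24% and 2.12%). With Sept2C111A libraries 3 and 4 both left out, a choice made after seeing the data, 4 of 93 members were called (4.30%), where 7.66% of tested genes were.

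Most log2 fold changes of the members were small and positive. They were above 0 for 85 of 93 members, where 6460 of 12462 tested genes were above 0, and their median was 0.12, where that of all tested genes was 0.0086. With all libraries the medians by complex were 0.12 for complex I, 0.098 for complex II, 0.11 for complex III, 0.14 for complex IV and 0.15 for complex V. Without Sept2C111A library 3 they were 0.024, 0.060, 0.0073, 0.030 and 0.045 for complexes I to V. Without library 4 they were 0.19, 0.14, 0.20, 0.25 and 0.22, and without wild-type library 2 that of complex III was 0.063. Among the 56 members of at most 1000 nt the median was 0.14, and among the 645 other genes of that length it was 0.16. From 1000 to 2000 nt the medians were 0.10 for 27 members and 0.084 for 2478 other genes, and above 2000 nt 0.033 for 10 members and -0.023 for 9099 others. The share of log2 fold changes above 0 was larger among members than among others in each length class, at 92.9% against 78.6% up to 1000 nt, 92.6% against 67.2% from 1000 to 2000 nt and 8 of 10 against 45.0% above 2000 nt. The difference between members and other genes of their length was not tested.

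In the trend fit, normalized library sizes were not kept with their libraries, so its values do not correct for length and GC alone. There, 28 of 93 members had a positive log2 fold change. The medians were then -0.047, 0.0049, -0.060, -0.060 and -0.028 for complexes I to V, and that of all tested genes was -0.039. Cox6a2 was then the 1 member called, where 7.09% of tested genes were called. Leaving out Sept2C111A libraries 2 and 3 together left 39 members above 0, with medians of -0.080 for complex III and -0.016 for complex V, and Sdhd as the 1 member called, where 3.86% of tested genes were called.

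**Figure D4:**
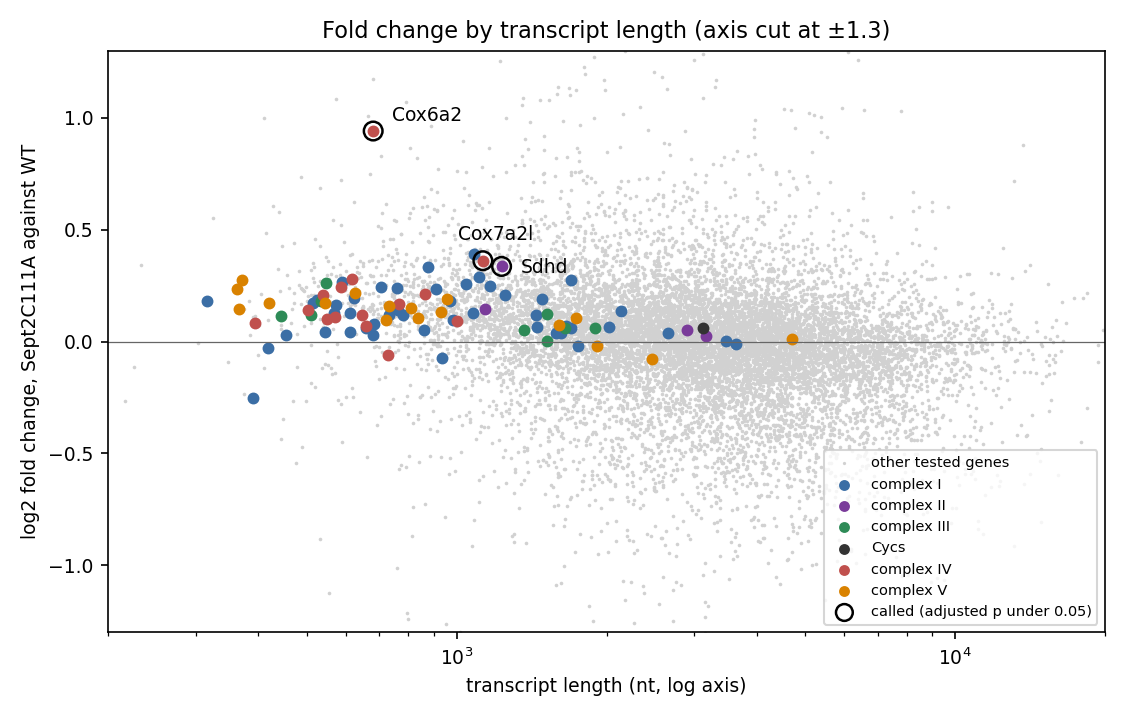
Log2 fold change of Sept2C111A against wild type (vertical axis, shown from -1.3 to 1.3) against transcript length (horizontal log axis) for all tested genes in grey and the members coloured by complex. Rings mark the called members Sdhd, Cox7a2l and Cox6a2; most members lie among the short transcripts, where the grey points are also shifted above 0.

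Complex II, succinate dehydrogenase, belongs both to the citric acid cycle and to the electron transport chain, and all its 4 subunits are nuclear-encoded. Sdha carries the flavin that oxidizes succinate, Sdhb holds iron-sulfur clusters, and Sdhc and Sdhd anchor the enzyme in the membrane and bind ubiquinone. Sdhd rose in Sept2C111A libraries. Its levels were 53.0, 54.5, 51.5 and 53.6 CPM in the wild-type libraries and 60.8, 68.5, 68.4 and 70.8 CPM in the Sept2C111A libraries. Every Sept2C111A library lay above every wild-type library, and here library 4, in which 40 of 93 members were lowest, was the highest. The log2 fold change was 0.34 (SE 0.064, adjusted p = 0.013). Without wild-type library 1 or 3 the adjusted p was 0.056 or 0.065. In the trend fit, which does not isolate the trend, the log2 fold change was 0.18 (adjusted p = 0.32).

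The other subunits of complex II did not pass, and their groups overlapped. Sdha, the most abundant by CPM, had 148, 165, 154 and 150 CPM in wild-type libraries and 147, 160, 159 and 173 CPM in the Sept2C111A libraries (log2 fold change 0.051, adjusted p = 0.68). Sdhb had 86.2 ± 2.35 and 95.5 ± 12.02 CPM (log2 fold change 0.15, adjusted p = 0.31), and Sdhc 99.5 ± 4.24 and 101 ± 10.4 CPM (log2 fold change 0.027, adjusted p = 0.87). The anchor subunits Sdhc and Sdhd, which pair in the membrane, thus had log2 fold changes of 0.027 and 0.34, and the difference between them was not tested.

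Sdhd lies on chromosome 9 at 50596340 to 50603849 (minus strand, GRCm38, the mm10 build). It is arranged head to head with Timm8b, a chaperone gene of the mitochondrial intermembrane space, and 51 bases separate them. That stretch holds the letters CTTCCGG, which on the other strand read CCGGAAG, the core recognized by ETS-family factors such as GABP, in RefSeq's Sdhd promoter (GRCm38.p6, chr9:50603850-50603900, minus strand, capitals mark the match). It is shown because both genes share it and only Sdhd was called.
Sdhd: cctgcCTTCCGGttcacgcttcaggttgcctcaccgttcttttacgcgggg
Timm8b had 18.3 ± 1.48 CPM in wild-type libraries and 21.2 ± 3.57 CPM in the Sept2C111A libraries, with overlapping groups (log2 fold change 0.21, adjusted p = 0.29). The difference between the neighbours was not tested.

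**Figure D5:**
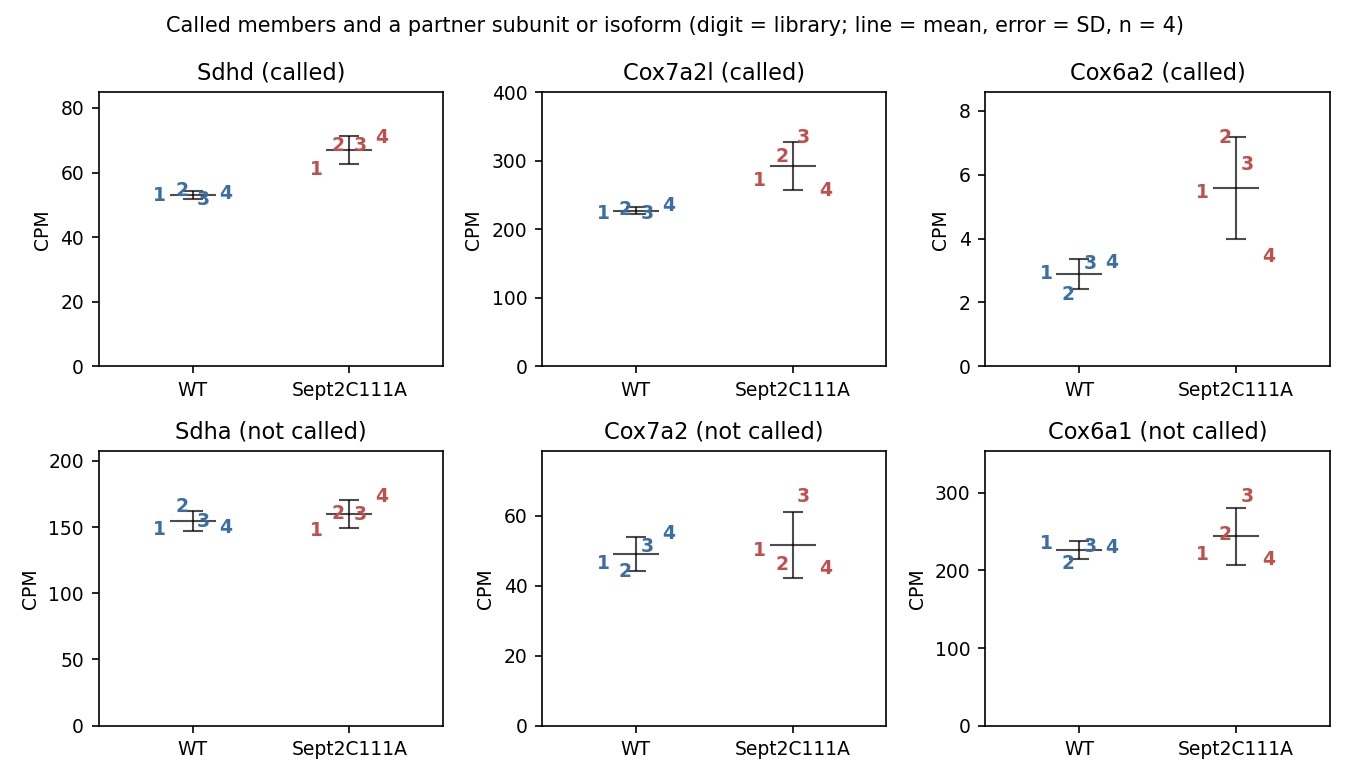
CPM per library (vertical axis from 0, digits are library numbers) by genotype (horizontal axis) for the called members Sdhd, Cox7a2l and Cox6a2 in the upper row and for Sdha, Cox7a2 and Cox6a1 in the lower row, with mean and SD (n = 4). The groups are separate for the upper genes and overlap for the lower ones.

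Complex IV, cytochrome c oxidase, held the other called members. Cox7a2l (also called SCAF1) is related to the Cox7a subunits and joins complexes III and IV into supercomplexes. Its levels were 223, 230, 223 and 234 CPM in the wild-type libraries and 271, 307, 333 and 257 CPM in the Sept2C111A libraries. The groups did not overlap, and library 4 of Sept2C111A came nearest to wild type. The log2 fold change was 0.36 (SE 0.082, adjusted p = 0.028). The call was lost in the trend fit (log2 fold change 0.19, adjusted p = 0.12), without Sept2C111A library 2 (adjusted p = 0.090) and without any 1 of the wild-type libraries (adjusted p 0.066 to 0.11). Its paralogs did not pass. Cox7a2, the common isoform, had 49.1 ± 4.83 and 51.6 ± 9.44 CPM (log2 fold change 0.070, adjusted p = 0.76), and Cox7a1, the isoform of heart and skeletal muscle, had 1.36 ± 0.229 and 1.45 ± 0.329 CPM (log2 fold change 0.084, adjusted p = 0.86).

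Cox7a2l lies on chromosome 17 at 83501917 to 83514333. RefSeq's promoter window before its start (GRCm38.p6, chr17:83514334-83514583, minus strand) is shown beside that of Cox6a1, a complex IV subunit with motif matches (chr5:115348959-115349208, minus strand). Capitals mark CGCATGCG, the inner part of the palindrome bound by NRF1, and CTTCCGG, the reverse complement of the ETS core CCGGAAG. Cox6a1 holds both and Cox7a2l holds neither in this window.
Cox7a2l: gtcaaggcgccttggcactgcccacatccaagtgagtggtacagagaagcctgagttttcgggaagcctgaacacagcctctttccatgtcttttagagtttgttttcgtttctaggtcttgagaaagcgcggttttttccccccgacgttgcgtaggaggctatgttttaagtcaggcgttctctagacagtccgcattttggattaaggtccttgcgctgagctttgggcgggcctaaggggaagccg
Cox6a1: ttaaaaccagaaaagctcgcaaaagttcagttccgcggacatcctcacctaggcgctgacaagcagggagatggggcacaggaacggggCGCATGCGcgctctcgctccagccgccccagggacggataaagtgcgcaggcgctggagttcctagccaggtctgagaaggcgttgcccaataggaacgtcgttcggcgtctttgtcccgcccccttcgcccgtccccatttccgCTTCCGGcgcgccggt

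Cox6a2 encodes the heart and skeletal muscle isoform of subunit 6a, and it rose from a low level. It had 2.91, 2.24, 3.21 and 3.25 CPM in the wild-type libraries and 5.44, 7.16, 6.31 and 3.45 CPM in the Sept2C111A libraries. The groups were separate, although library 4 of Sept2C111A lay close to wild type. The log2 fold change was 0.94 (SE 0.218, adjusted p = 0.030), and 0.73 in the trend fit (adjusted p = 0.014). The call was lost without Sept2C111A library 2 or 3 (adjusted p = 0.090 and 0.053) and without any 1 of the wild-type libraries (0.064 to 0.089). The ubiquitous isoform Cox6a1 was at 226 ± 11.8 and 244 ± 36.6 CPM (log2 fold change 0.11, adjusted p = 0.52). Per kb, Cox6a2 had 4.26 CPM in wild-type libraries and Cox6a1 396 CPM.

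The smooth muscle markers summed to less in every Sept2C111A library than in any wild-type library, opposite in direction to Cox6a2, and among them Acta2 and Tagln fell (log2 fold changes -0.62 and -0.61). Their part in the level of Cox6a2 was not tested. Cox6a2 lies on chromosome 7 at 128205435 to 128206366, and its span shares 70 bases with that of Itgad, an integrin gene. No strand is given for the reads, so reads from the shared bases cannot be assigned to either gene. Itgad had 0.722 ± 0.128 CPM in wild-type libraries and 1.43 ± 0.521 CPM in the Sept2C111A libraries (log2 fold change 0.99, adjusted p = 0.077), and its part in the counts of Cox6a2 was not tested.

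The other complex IV isoforms of particular tissues were also near the lower end of the members. Cox4i2, the isoform of lung and of low oxygen, had 2.89 ± 0.666 and 2.77 ± 1.04 CPM (log2 fold change -0.058, adjusted p = 0.92). Cox6b2, the testis isoform, had 1.45 ± 0.087 and 1.72 ± 0.448 CPM (log2 fold change 0.24, adjusted p = 0.50). Their common counterparts were far more abundant. Cox4i1 had 290, 277, 306 and 307 CPM in wild-type libraries and 298, 344, 421 and 260 CPM in Sept2C111A libraries, spanning the wild-type range on both sides (log2 fold change 0.17, adjusted p = 0.44). Cox6b1 had 152 ± 10.96 and 185 ± 35.4 CPM (log2 fold change 0.28, adjusted p = 0.17), and Cox8a, the highest of all members per kb, had 252 ± 14.9 and 270 ± 36.5 CPM (log2 fold change 0.10, adjusted p = 0.54). None of the 10 common subunits of complex IV was called, 2 had an unadjusted p under 0.05 (Cox6b1 and, chosen after its values were seen, Cox7c), and all 10 had a positive log2 fold change, from 0.070 to 0.28.

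Complex I is the largest complex, with a catalytic core of conserved subunits, many accessory subunits and a long assembly pathway. None of its members was called. The 7 core subunits measured here all had positive log2 fold changes, with a median of 0.071. Ndufv1 and Ndufv2, which with Ndufs1 form the module that oxidizes NADH, had log2 fold changes of 0.071 and 0.062 (adjusted p = 0.71 and 0.77), and Ndufs1 one of 0.040 (adjusted p = 0.74). Of the subunits that lead electrons to ubiquinone, Ndufs3 and Ndufs7 had the larger differences, at 57.7 ± 4.83 and 69.0 ± 13.8 CPM for Ndufs3 (log2 fold change 0.26, adjusted p = 0.23) and 65.4 ± 3.60 and 77.2 ± 16.3 CPM for Ndufs7 (log2 fold change 0.24, adjusted p = 0.28). The log2 fold change of Ndufs8 was 0.097 (adjusted p = 0.69).

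Accessory subunits surround the core and are needed for assembly and stability. Of 29 tested, 28 had a positive log2 fold change, with a median of 0.14 and a range of -0.029 to 0.33. An unadjusted p under 0.05 was found for 6 (20.7%, against 24.8% of tested genes in either direction). All 6 were higher, and 1534 of 12462 tested genes were higher at that threshold. Those 6, named after their values were seen, were Ndufa5, Ndufa6, Ndufb4, Ndufb9, Ndufb11 and Ndufs4. Ndufa6 came nearest to the threshold (adjusted p = 0.092), at 67.4, 67.2, 74.1 and 75.4 CPM in wild-type libraries and 81.3, 87.4, 98.2 and 74.7 CPM in the Sept2C111A libraries. Its library 4 of Sept2C111A fell inside the wild-type range while the other three lay above it. Ndufa5 had the largest log2 fold change of the 6, at 0.33 (18.6 ± 1.42 and 23.5 ± 4.97 CPM, adjusted p = 0.16). Without Sept2C111A library 4, 9 of the complex I members were called higher, with 17 of 93 members called in all, or 18.3%, where 16.5% of tested genes were then called, 8.69% as higher.

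Ndufb4 was the only member of complex I whose groups did not overlap. It had 48.9, 44.1, 49.98 and 51.9 CPM in wild-type libraries and 52.8, 53.6, 62.5 and 52.3 CPM in the Sept2C111A libraries (log2 fold change 0.18, adjusted p = 0.18). The files also list Ndufb4b and Ndufb4c, whose names mark them as related copies, and the counts of Ndufb4 were not whole in any of the 8 libraries, so its level is uncertain to the extent that reads were shared. Ndufb4c had 4.04 ± 0.766 and 3.41 ± 1.90 CPM (log2 fold change -0.25, adjusted p = 0.70). Ndufb4b did not pass the filter, with 0.525 CPM in wild-type library 4 and 0 counts in the other 7 libraries.

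The complex I assembly factors Ndufaf1 to Ndufaf8 were expressed at lower levels than the subunits, and none of 8 was called or had an unadjusted p under 0.05. Their median log2 fold change was 0.091. Ndufaf6, with the largest difference of the members of complex I, had 2.62, 2.75, 2.83 and 2.82 CPM in wild-type libraries and 3.12, 2.76, 5.14 and 3.45 CPM in the Sept2C111A libraries. Library 3 of Sept2C111A stood highest and library 2 fell within the wild-type range (log2 fold change 0.39, adjusted p = 0.23). Ndufa4, first assigned to complex I and now counted with complex IV, had 63.0 ± 5.52 and 64.9 ± 7.32 CPM (log2 fold change 0.041, adjusted p = 0.82). Its paralog Ndufa4l2, a gene induced by low oxygen, had 8.52 ± 1.82 and 8.09 ± 1.54 CPM (log2 fold change -0.075, adjusted p = 0.83).

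Complex III passes electrons from ubiquinol to cytochrome c. None of its 9 members was called, and 0 had an unadjusted p under 0.05. All 9 had positive log2 fold changes, and all 9 were highest in Sept2C111A library 3. Its 4 core subunits had the smallest log2 fold changes of the complex, from 0.0037 to 0.062. Cyc1, the heme protein cytochrome c1, had 68.6, 62.8, 64.5 and 69.2 CPM in wild-type libraries and 66.2, 65.9, 74.8 and 58.9 CPM in the Sept2C111A libraries, the latter spanning the former (log2 fold change 0.0037, adjusted p = 0.98). Uqcrfs1, the Rieske iron-sulfur protein, had 49.5 ± 0.596 and 51.2 ± 2.33 CPM (log2 fold change 0.050, adjusted p = 0.63).

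The structural core proteins Uqcrc1 and Uqcrc2 had log2 fold changes of 0.060 and 0.062 (adjusted p = 0.79 and 0.53). Uqcrc1, the most abundant member of complex III, stood at 148 ± 6.44 and 155 ± 28.0 CPM. The accessory subunits had larger differences, from 0.11 to 0.26, and also shorter transcripts, with a median of 535 nt against 1587 nt for the core subunits. Uqcrh, the hinge protein that docks cytochrome c1, had the largest, with 69.8, 63.2, 70.7 and 79.8 CPM in wild-type libraries and 78.4, 85.9, 111 and 65.1 CPM in the Sept2C111A libraries (log2 fold change 0.26, adjusted p = 0.27). Library 4 of Sept2C111A was again inside the wild-type range.

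Cycs, cytochrome c itself, carries electrons between complexes III and IV and also acts in apoptosis. It had 93.9, 92.3, 93.5 and 95.5 CPM in wild-type libraries and 95.1, 93.8, 105 and 97.7 CPM in the Sept2C111A libraries. Apart from library 3 the groups lay together (log2 fold change 0.061, adjusted p = 0.54). Its RefSeq promoter window (GRCm38.p6, chr6:50566570-50566819, minus strand) is shown because it holds matches to 2 of the motifs searched: the cAMP response element TGACGTCA, to which factors of the CREB family bind, and the NRF1 letters CGCATGCG, both in capitals.
Cycs: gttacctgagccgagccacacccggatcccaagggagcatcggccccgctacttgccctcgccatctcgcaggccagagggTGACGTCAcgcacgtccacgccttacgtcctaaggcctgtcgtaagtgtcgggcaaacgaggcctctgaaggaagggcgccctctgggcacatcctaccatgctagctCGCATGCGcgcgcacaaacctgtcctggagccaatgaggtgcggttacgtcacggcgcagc

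Complex V contributed the most RNA by CPM. Its catalytic head is built from alpha and beta subunits, and Atp5b, the beta subunit, was the most abundant of all members. It had 506, 497, 517 and 511 CPM in wild-type libraries and 502, 493, 538 and 470 CPM in the Sept2C111A libraries, again spanning the wild-type range (log2 fold change -0.019, adjusted p = 0.88). Atp5a1, the alpha subunit, had 453, 457, 481 and 463 CPM in wild-type libraries and 441, 434, 448 and 434 CPM in the Sept2C111A libraries. It was the only member with every Sept2C111A library below every wild-type library, and the difference did not pass (log2 fold change -0.077, SE 0.055, adjusted p = 0.41).

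The small subunits of the central stalk, Atp5c1 (gamma), Atp5d (delta) and Atp5e (epsilon), had log2 fold changes of 0.10, 0.13 and 0.17 (adjusted p = 0.44, 0.52 and 0.52). Atp5a1 and Atp5b, which have longer transcripts (2471 and 1916 nt, against 421 nt for Atp5e), were the members of complex V with negative log2 fold changes. Atp5d ran from 240 to 270 CPM in wild-type libraries and from 223 to 357 CPM in the Sept2C111A libraries. None of the 17 members of complex V was called.

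The rotor ring is made of subunit c, and the 3 genes Atp5g1, Atp5g2 and Atp5g3 encode the same mature protein with different targeting sequences. Atp5g2 was the most abundant by CPM, with 142, 142, 146 and 144 CPM in wild-type libraries and 160, 162, 176 and 144 CPM in the Sept2C111A libraries. Apart from library 4 the Sept2C111A libraries lay above wild type (log2 fold change 0.16, adjusted p = 0.17, unadjusted p = 0.036, the smallest of complex V). Atp5g1 had 110 ± 8.09 and 111 ± 13.6 CPM (log2 fold change 0.014, adjusted p = 0.95), and Atp5g3 92.1 ± 3.79 and 98.4 ± 11.5 CPM (log2 fold change 0.095, adjusted p = 0.51). The rank of Atp5g1 per kb depends on the transcript taken, since its curated transcripts run from 596 to 4715 nt.

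The 4 subunits of the peripheral stalk had a median log2 fold change of 0.13, and the 5 membrane subunits one of 0.19, with 0 called in either group. Atp5k, subunit e of the membrane part, had the largest difference of complex V (22.9 ± 2.63 and 27.8 ± 7.46 CPM, log2 fold change 0.28, adjusted p = 0.31). The membrane subunits also had the shortest transcripts of these groups, with a median of 371 nt.

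Genes that build or feed the chain, taken from lists of assembly factors, the citric acid cycle and mitochondrial biogenesis, were compared in the same fit. Of 46 tested assembly factors outside the naming rule, 2 rose and 0 fell (4.35%, against 6.46% of tested genes in either direction and 3.43% as higher). Surf1, which acts in the assembly of complex IV, had 25.9, 26.1, 24.9 and 29.1 CPM in wild-type libraries and 32.7, 39.1, 41.7 and 32.4 CPM in the Sept2C111A libraries. All Sept2C111A libraries lay above all wild-type ones (log2 fold change 0.46, SE 0.095, adjusted p = 0.019). Tmem242, which acts in the assembly of the ATP synthase rotor ring, had 26.9, 24.6, 26.5 and 28.2 CPM in wild-type libraries and 34.2, 39.1, 46.1 and 30.0 CPM in the Sept2C111A libraries. The groups were again separate (log2 fold change 0.49, SE 0.117, adjusted p = 0.033).

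Both calls were lost without Sept2C111A library 2 (adjusted p = 0.067 for Surf1 and 0.10 for Tmem242) or without wild-type library 1, 2 or 3 (0.052 to 0.11), and that of Tmem242 also without wild-type library 4 (0.070). They were lost too with the replicate number as a block (0.056 for Surf1 and 0.070 for Tmem242) and without Sept2C111A libraries 2 and 3 together (0.062 and 0.094). In the trend fit, Tmem242 was still called (log2 fold change 0.30, adjusted p = 0.035) and Surf1 was not (0.29, adjusted p = 0.070). The most abundant assembly factors of the lists without a call were Dmac1 for complex I (35.1 ± 1.15 and 40.5 ± 4.88 CPM, adjusted p = 0.17), Sdhaf2, which inserts the flavin of Sdha, for complex II (34.1 ± 1.95 and 38.0 ± 3.89 CPM, adjusted p = 0.27) and Uqcc2 for complex III (41.4 ± 6.02 and 47.0 ± 12.1 CPM, adjusted p = 0.52). Lrpprc, which stabilizes mitochondrial mRNAs and was named after its values were seen, had 36.3 ± 2.29 and 30.7 ± 1.78 CPM (log2 fold change -0.24, adjusted p = 0.066 in edgeR and 0.031 in DESeq2).

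None of 17 tested genes of the citric acid cycle and pyruvate dehydrogenase was called, and 1 had an unadjusted p under 0.05 (5.88%, against 24.8% of tested genes). Their median log2 fold change was 0.014. The gene with the low unadjusted p was Idh3b, a subunit of the NAD-dependent isocitrate dehydrogenase, named after its values were seen, at 90.2 ± 3.00 and 105 ± 6.60 CPM (log2 fold change 0.22, adjusted p = 0.064 in edgeR and 0.018 in DESeq2).

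None of 16 tested regulators of mitochondrial biogenesis was called, and 3 had an unadjusted p under 0.05 (18.8%, against 24.8% of tested genes). Yy1, a transcription factor with sites in many respiratory chain promoters, was the most abundant at 99.4 ± 5.90 and 98.0 ± 3.72 CPM (log2 fold change -0.020, adjusted p = 0.88). Their median log2 fold change was -0.014.

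Respiratory chain genes are spread over the genome and are known to share promoter elements of a few factors, so the RefSeq promoter windows of 250 bases before and 50 after each start were searched on both strands. Entries matched 76 of the 94 members. The NRF1 letters CGCATGCG were in 12 of 76 (15.8%), against 4.35% of the promoters of tested genes and 2.07% of all 27025 promoters in the table. By complex they were in 4 of 41 for complex I, 0 of 3 for complex II, 2 of 5 for complex III, 1 of 11 for complex IV and 4 of 15 for complex V, and in that of Cycs. The YY1 letters AAGATGGCG were in 8 (10.5%, against 3.56% and 1.64%), of which 6 belong to complex I and 2 to complex V. The ETS core CCGGAAG was in 19 (25.0%, against 20.2% and 9.93%). The cAMP response element TGACGTCA was in 5 (6.58%, against 3.5% and 2.03%). The motifs were searched separately, and a promoter may hold more than 1 of them, as those of Cox6a1 and Cycs do. Of the called members, Sdhd holds the ETS core and Cox7a2l none of the 4, and Cox6a2 had no entry.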

How the data were processed

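RNA of BMDMs was sequenced in 8 libraries, and mRNA was enriched on oligo(dT) beads per the labels' protocols. The files hold expected counts per gene symbol, deposited by the authors for each library; such counts share out reads that match several genes. Bowtie2, RSEM (1.3.1), DESeq2 (1.4.5) and the mm10 build are listed, without their roles, in the submitters' processing notes. Annotation and strand were not given in the sources used here.

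Expected counts were rounded to whole numbers, filtered with filterByExpr (minimum count 10), normalized by TMM and fitted on 12462 genes with edgeR 4.0.16 in R 4.3.3 (quasi-likelihood F test, two-sided, genotype as the only term, Benjamini-Hochberg over all tested genes). Calls needed an adjusted p under 0.05. SE values were obtained as log2 fold change over the root of F. Log2 CPM used a prior count of 2. The limit of 3 counts covers counting error only. On simulated counts for this comparison the fit was tested before use.

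Counts of 94.6% of tested members were not whole (by more than 0.05) in at least 1 library, and those of 17 members in all 8. In the annotation, 32 members overlap another gene. Lengths come from curated GENCODE transcripts and positions and promoters from RefSeq, both of GRCm38.

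Named members were, per complex, the most abundant, the called, the one with the largest log2 fold change at 2 CPM or more, core subunits, isoform sets and members not tested; from each other list, up to 3 called genes or the most abundant one. Some genes that these rules select are not reported here. The members and the lists were chosen with earlier results of these data known. Alternatives used limma 3.58.1, DESeq2 1.42.0, mgcv 1.9.3, other normalizations and filters, a replicate block and libraries left out.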

Additional observations from a re-analysis of the deposited data

Results flagged for a closer look

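Within the groups of 4 libraries, 88 sets of values were examined for a library far from the other 3 by Dixon's ratio, and 2 were found, where chance gives about 1 in 20. Cox6b2 was at 2.39 CPM in Sept2C111A library 3 and at 1.43 to 1.56 CPM in the other 3 Sept2C111A libraries. Sdhb was at 82.7 CPM in wild-type library 2 and at 87.2 to 87.7 CPM in the other wild-type libraries.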

How the results depend on the processing

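Of 3 members called higher, 1 remained in the trend fit (where 7.09% of genes were called), 1 without Sept2C111A libraries 2 and 3, and 1 with the replicate block. The trend fit did not keep each library's normalized size with that library, so it does not isolate the length and GC trend. Leaving out single libraries gave 0 to 17. No member was called lower in any of the 19 alternatives. Complex medians moved in the trend fit (-0.047, 0.0049, -0.060, -0.060 and -0.028 for I to V) and, for III and V, without Sept2C111A libraries 2 and 3 (-0.080 and -0.016). The cause was not tested. Without Sept2C111A libraries 3 and 4, chosen after seeing the data, 4 members were called (where 7.66% of genes were). Leaving out single libraries gave medians of 0.024 to 0.19, 0.060 to 0.14, 0.0073 to 0.20, 0.030 to 0.25 and 0.045 to 0.22 for complexes I to V.

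The labels do not say whether numbers shared by the genotypes pair the libraries. The correlations of deviations were 0.14, 0.096, -0.023 and -0.24 for numbers 1 to 4, and not every library correlated best with its own number. With 4 libraries per genotype, these values cannot decide whether the libraries were paired. With the replicate block 494 genes were called in place of 805, and 1 member (Sdhd, adjusted p = 0.045).

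Over all genes, calls numbered 361 without Sept2C111A library 2, 2077 without library 4, 266 to 475 without a wild-type library and 1402 with DESeq2. Without Sept2C111A libraries 2 and 3 there were 492. The trend fit gave 334 higher and 550 lower calls in place of 428 and 377, and library totals without normalization factors gave 297 and 361. Because the trend fit also lost the normalization of the libraries, its change in calls cannot be credited to the trend.

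Of 100 results, 32 changed sign somewhere, none of them called with all libraries. The count includes the trend fit, whose changes of sign cannot be credited to the trend because its library sizes were misplaced. Log2 fold changes of opposite sign were, in the trend fit: Atp5c1 -0.017, Atp5d -0.024, Atp5e -0.038, Atp5g2 -0.020, Atp5g3 -0.10, Cox4i1 -0.024, Cox6a1 -0.067, Cox7a1 -0.12, Cox7a2 -0.12, Cox8a -0.073, Cyc1 -0.13, Cycs -0.012, Ndufa4 -0.17, Ndufs1 -0.020, Ndufs8 -0.081, Ndufv1 -0.049, Ndufv2 -0.094, Sdhb -0.018, Sdhc -0.0012, Uqcc2 -0.0073, Uqcrc1 -0.060, Uqcrc2 -0.051, Uqcrfs1 -0.094, Yy1 0.024. Without Sept2C111A libraries 2 and 3 they were: Atp5c1 -0.0021, Atp5d -0.076, Atp5e -0.11, Atp5g1 -0.068, Atp5g3 -0.016, Atp5k -0.026, Cox4i1 -0.079, Cox6a1 -0.056, Cox7a1 -0.20, Cox7a2 -0.049, Cox8a -0.058, Cyc1 -0.083, Ndufa4 -0.025, Ndufs7 -0.018, Ndufs8 -0.14, Ndufv1 -0.11, Ndufv2 -0.12, Sdhc -0.070, Uqcc2 -0.043, Uqcrc1 -0.13, Uqcrfs1 -0.0046, Yy1 0.023. Without Sept2C111A libraries 3 and 4 they were: Atp5g1 -0.019, Cox7a2 -0.030, Cyc1 -0.0036, Ndufb4c 0.31, Ndufs1 -0.00025, Sdha -0.0054. With library totals only they were: Atp5g1 -0.046, Cyc1 -0.055, Ndufa4 -0.017, Ndufs1 -0.014, Ndufv2 -0.00044, Sdha -0.0044, Sdhc -0.033, Uqcrc1 -0.0035, Uqcrfs1 -0.0070. Cyc1 was -0.00051 with limma voom and -0.0071 with upper-quartile factors. With single libraries left out, log2 fold changes that changed sign ran over these ranges: Atp5b -0.054 to 0.016, Atp5g1 -0.066 to 0.076, Cox4i2 -0.32 to 0.082, Cox7a1 -0.021 to 0.22, Cox7a2 -0.062 to 0.14, Cyc1 -0.056 to 0.063, Ndufa4 -0.030 to 0.10, Ndufa4l2 -0.20 to 0.024, Ndufb4c -0.52 to 0.021, Ndufs8 -0.050 to 0.19, Ndufv1 -0.031 to 0.14, Ndufv2 -0.032 to 0.16, Sdhc -0.041 to 0.082, Uqcrc1 -0.048 to 0.17, Yy1 -0.058 to 0.0041.

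With 3 counts at 0.14 to 0.159 CPM, counting error bears on the isoforms near 1 to 3 CPM, and the number of libraries per genotype limits all calls.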
